A study of Mus musculus and Sus scrofa with 30 samples.

Results

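NQO1, NAD(P)H quinone dehydrogenase, and 9 other genes of the NRF2 oxidative stress response (NFE2L2, HMOX1, GCLC, GCLM, TXNRD1, SRXN1, SLC7A11, GSR and OSGIN1) were followed in a study of compounds given to cells that were forming fat. The genes were found by symbol, ignoring case. All 10 had a row among 24843 mouse genes and 9 had one among 34307 pig genes, which makes 19 of 59150 rows in all. No pig row carried the symbol HMOX1, so its pig level was not analysed here.

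Bulk RNA-seq libraries came from 2 cell systems. One was 3T3-L1, an established line of mouse embryonic fibroblasts that can become adipocytes. The other was porcine DFAT, fat cells from subcutaneous tissue that had de-differentiated. Each had 5 groups of 3 libraries, 30 in all, harvested on day 5 per the series' design text: DMSO vehicle, dicoumarol, magnolol, dicoumarol with magnolol (the combination), and rosiglitazone. Every group, vehicle included, was kept in adipogenic medium. For 3T3-L1 this held insulin at 0.75 µg/mL, dexamethasone at 75 nM and IBMX at 37.5 µM in 10% serum. For DFAT it held dexamethasone at 0.5 µM, IBMX at 12.5 µM, biotin at 20 µM and pantothenate at 10 µM in 2% serum. The sources used here give neither compound doses nor whether replicates were separate cultures. P-values then measure only the spread between these libraries, which may be technical. Dicoumarol is a coumarin anticoagulant and a known inhibitor of the NQO1 enzyme. Magnolol is a biphenolic compound of magnolia bark, and rosiglitazone is an agonist of PPARγ, the master regulator of fat cell formation.

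NRF2, the protein made from NFE2L2, is a transcription factor that KEAP1 marks for destruction in unstressed cells through the CUL3 and RBX1 ubiquitin ligase. When electrophiles or oxidants modify KEAP1, NRF2 builds up, pairs with small MAF proteins and binds antioxidant response elements, which BACH1 otherwise occupies as a repressor. Its targets make glutathione, reduce peroxides and quinones, and break down heme. NQO1 is widely read as an index of NRF2 activity. Its mRNA was measured here, not the activity of the enzyme that dicoumarol inhibits.

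The mouse promoters were searched for the core of the antioxidant response element, TGACNNNGC, on both strands. RefSeq windows on GRCm38.p6, from 250 bases before to 50 bases after each start, were held for 7 of the 10 genes, in 9 windows because Txnrd1 has several starts. A match was found in 4 of the 9 windows, 1 each for Nfe2l2, Gclm, Txnrd1 and Srxn1, while 12.4% of all 32851 mouse windows held one. A match describes the letters and is no binding site. The 4 are shown because they hold these letters near the start. In the mouse cells none of the 4 was called with dicoumarol, magnolol or the combination against vehicle. With rosiglitazone Gclm rose, Nfe2l2 and Srxn1 fell, and Txnrd1 was not called. Of their pig counterparts TXNRD1 and SRXN1 fell in the results below, and NFE2L2 and GCLM were not called against vehicle. Pig NQO1 and OSGIN1 also fell and SLC7A11 rose, though the mouse windows of these genes held no match. Any link between a match and a change in level was not tested. The capitals mark the match, and each sequence reads 5′ to 3′ along the gene's strand. The match lies 240 bases before the start in Nfe2l2 (chr2:75704854-75704913, minus strand), 134 before in Gclm (chr3:122245398-122245457, plus strand) and 92 before 1 of the Txnrd1 starts (chr10:82859089-82859148, plus strand). In Srxn1 it begins at base 29 of the transcript (chr2:152105542-152105571, plus strand). The Nfe2l2 start was not found in a GENCODE transcript of that gene, while the starts of the other windows were.
Nfe2l2: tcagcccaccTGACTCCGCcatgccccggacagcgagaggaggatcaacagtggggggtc
Gclm: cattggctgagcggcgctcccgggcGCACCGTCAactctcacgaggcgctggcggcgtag
Txnrd1: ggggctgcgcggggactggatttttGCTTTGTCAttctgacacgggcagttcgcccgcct
Srxn1: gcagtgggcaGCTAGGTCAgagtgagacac
The windows of Nqo1, Slc7a11 and Osgin1 held no match. Bases more than 250 before a start were not searched, so an element there would be missed. The 120 bases just before the Nqo1 start (chr8:107403206-107403325, minus strand) are printed for comparison.
Nqo1: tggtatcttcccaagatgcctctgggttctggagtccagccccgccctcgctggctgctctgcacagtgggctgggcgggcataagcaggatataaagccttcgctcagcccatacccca

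All levels are the authors' size-factor normalized counts. Depth, estimated from the steps of low values, ran from 22.8 to 30.7 M reads in 3T3-L1 and from 44.8 to 70.5 M in DFAT. The 19 rows passed the minimum mean of 10, and 15723 mouse and 14819 pig genes were tested. Changes are differences of log2(normalized count + 1) from limma, with Benjamini-Hochberg adjustment over all tested genes and a threshold of 0.05. The 4 comparisons with vehicle in each system share the same 3 vehicle libraries. Mouse and pig tables were normalized separately, so no test was made between them. Levels of cell type markers were set beside the labelled cell types. Fibroblast markers (8 with a row in 3T3-L1, 7 in DFAT) took 0.727% to 1.45% of 3T3-L1 counts and 3.29% to 6.53% of DFAT counts, whereas no epithelial marker passed 15.4 normalized counts in any library.

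In DFAT cells NQO1 was highest with vehicle and lower in all 4 treated groups. The vehicle libraries held 2229, 2305 and 2328 normalized counts of NQO1 (chromosome 6, 17292770 to 17302590, plus strand). Dicoumarol libraries held 1673, 1775 and 1744, and magnolol libraries 1185, 1499 and 1278. The combination gave 1265, 1352 and 1261, and rosiglitazone 1830.1, 1911 and 1642. No treated library reached the lowest vehicle library. By limma, dicoumarol libraries were 24.3% lower in NQO1 (SE 0.08 on the log2 scale, adjusted p 0.00954) and magnolol libraries 42.5% lower (adjusted p 5.52e-06). The combination was 43.5% lower (adjusted p 1.62e-06), and rosiglitazone 21.7% lower (adjusted p 0.00616). Without dicoumarol replicate 1 the dicoumarol call was lost (limma adjusted p 0.0624). In such bulk samples fewer cells of a type and less RNA per cell cannot be told apart.

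The treated groups also differed from each other in NQO1. With the combination the level was lower than with dicoumarol alone (log2 difference −0.42, limma adjusted p 0.00618) and the 2 groups did not overlap. Against magnolol alone the difference of the combination was −0.02, with a 95% interval from −0.19 to 0.14, and the libraries overlapped. Magnolol libraries lay below dicoumarol libraries (−0.40, limma adjusted p 0.0129), a call that was lost without dicoumarol replicate 2 (0.0770) or 3 (0.0648) and without magnolol replicate 1 (0.0861) or 3 (0.0670). Rosiglitazone libraries lay above the combination libraries (0.47, limma adjusted p 0.000449). The combined log2 change of NQO1 was smaller in size than the sum of the single changes by 0.38 (SE 0.11), but this interaction did not pass the adjustment (limma adjusted p 0.675).

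**Figure D1:**
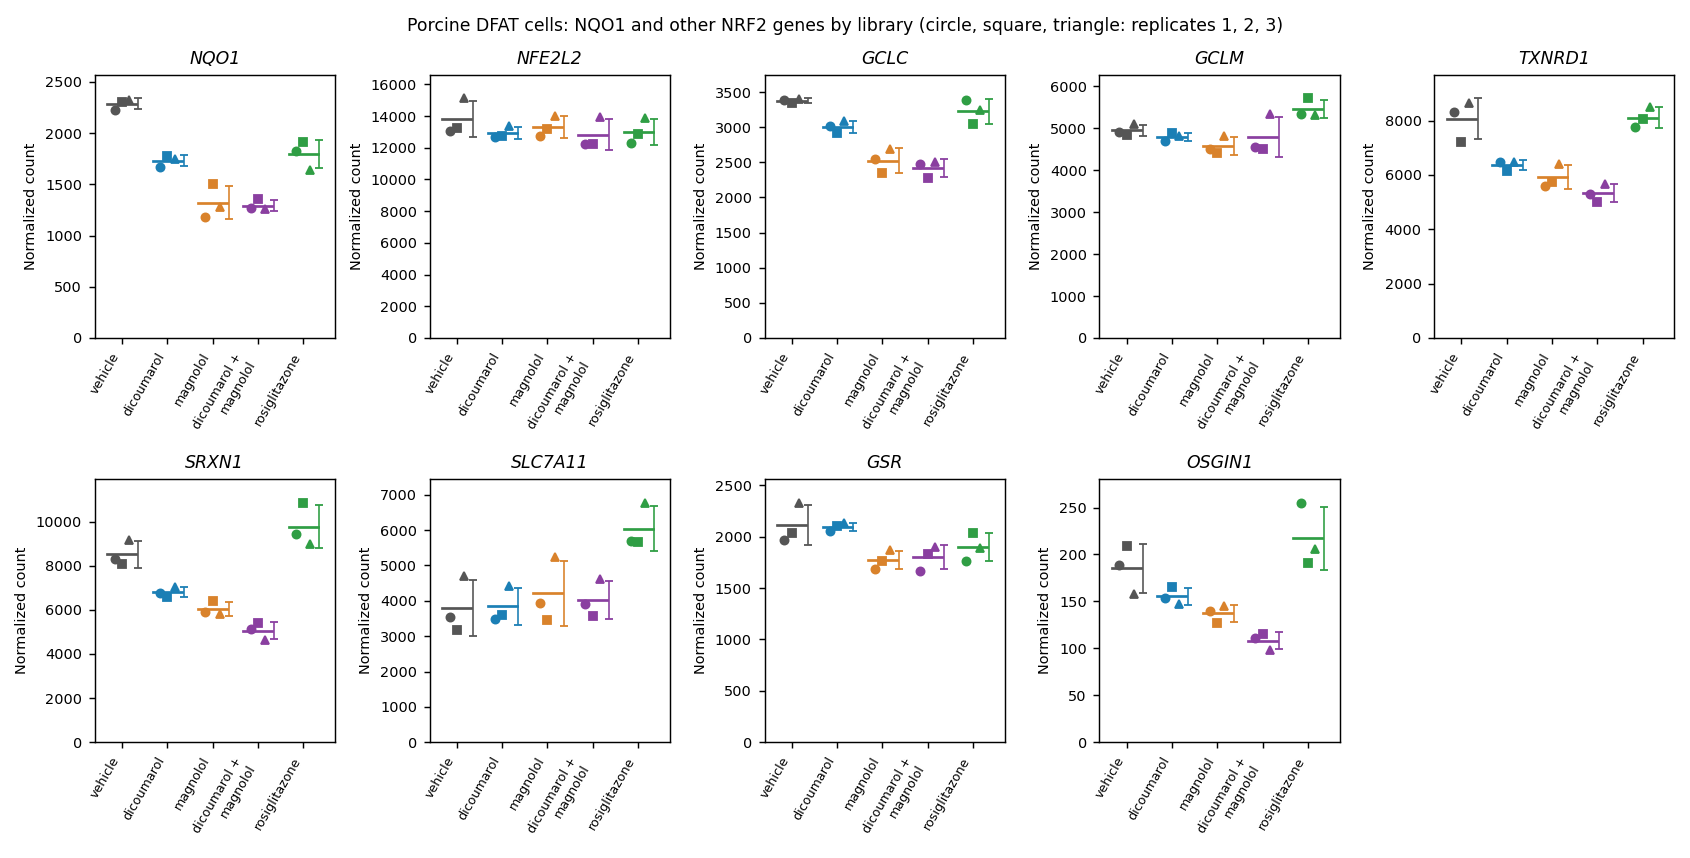
Normalized counts of the 9 genes in DFAT cells (y axis from 0, one panel per gene) in the 5 groups (x axis). Points are libraries, horizontal lines group means and vertical bars ± 1 SD (n = 3). NQO1 falls from 2229 to 2328 with vehicle to 1261 to 1352 with the combination, while SLC7A11 stands highest with rosiglitazone, from 5663 to 6774.

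Across the 9 pig genes, 3 were called with dicoumarol, all lower, where 1.94% of all tested genes were called, 1.03% lower. Magnolol gave 4, all lower, where 4.22% of all genes were called, 1.27% lower. The combination gave 5, all lower, where 10.2% were called, 4.06% lower. Rosiglitazone gave 1 lower (5.02% of all genes) and 1 higher (5.80%), where 10.8% were called. The median log2 change over the 9 was −0.17 (dicoumarol), −0.42 (magnolol), −0.48 (combination) and 0.01 (rosiglitazone). Over all tested genes the medians were 0.000343, −0.00661, −0.0104 and −0.00569. NQO1 was in all 4 sets. The plot of DFAT levels shows the steps.

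SRXN1 and TXNRD1 reduce oxidized peroxiredoxins and thioredoxin, and both were lower with dicoumarol, magnolol and the combination. SRXN1 (chromosome 17, 34582440 to 34589300, plus strand) had 8284, 8061 and 9186 normalized counts with vehicle and 6774, 6600.5 and 7037 with dicoumarol. Magnolol libraries had 5893, 6387 and 5813, combination libraries 5110.2, 5421 and 4637. These 4 groups do not overlap, and they step down in that order. With rosiglitazone SRXN1 stood at 9455, 10852 and 9005, overlapping vehicle. The falls were 20.0%, 29.1% and 40.6% (log2 fold changes −0.32, −0.50 and −0.75, limma adjusted p 0.035, 0.000665 and 3.09e-06). The dicoumarol call of SRXN1 was lost without vehicle replicate 1 (0.0910) or 3 (0.169) and without dicoumarol replicate 1 (0.130), 2 (0.174) or 3 (0.0901), with differences of −0.34, −0.26, −0.32, −0.30 and −0.35. SRXN1 was lower with the combination than with dicoumarol (−0.43, limma adjusted p 0.00367). Against magnolol the difference was −0.26 with no overlap, but it was not called (limma adjusted p 0.233).

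TXNRD1 (chromosome 5, 80172260 to 80236219, minus strand) followed the same order of means. Its vehicle libraries had 8335, 7225 and 8645 normalized counts, dicoumarol 6465, 6141 and 6482, and magnolol 5588, 5737 and 6422. The combination gave 5315, 4994 and 5655, and rosiglitazone, at 7755, 8071 and 8509, lay within the vehicle range. No library of the first 3 treatments reached vehicle. TXNRD1 was 20.9% lower with dicoumarol (log2 fold change −0.34, limma adjusted p 0.0192), 26.6% lower with magnolol (−0.45, limma adjusted p 0.00118) and 33.9% lower with the combination (−0.60, limma adjusted p 2.76e-05). The dicoumarol call of TXNRD1 was lost without vehicle replicate 1 (0.108) or 3 (0.106) and without dicoumarol replicate 1 (0.0641), 2 (0.116) or 3 (0.0671), each time with fewer samples. The difference was then −0.31, −0.29, −0.35, −0.31 and −0.35.

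The glutathione genes split. GCLC, the catalytic subunit of glutamate-cysteine ligase, which makes the glutathione precursor, had 3382, 3348 and 3407 normalized counts with vehicle (chromosome 7, 27209565 to 27253530, plus strand). Dicoumarol libraries had 3018, 2917 and 3090.1, magnolol 2543, 2341 and 2690.5, and the combination 2469.8, 2275 and 2509.8. All 9 lay below vehicle. GCLC fell by 0.42 with magnolol and by 0.48 with the combination on the log2 scale (limma adjusted p 5e-04 and 4.83e-05), and the difference with dicoumarol, −0.17, was not called (limma adjusted p 0.284). The combination also lay below dicoumarol in GCLC (−0.32, limma adjusted p 0.00923). That call was lost without dicoumarol replicate 1 (0.0508) or 3 (0.0591) or combination replicate 2 (0.0551). With rosiglitazone GCLC stood at 3391, 3044 and 3243, overlapping vehicle.

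GCLM, the modifier subunit of the same ligase, was not called in any comparison with vehicle. Its means were 4956 ± 130.2 (SD, n = 3) normalized counts in vehicle, 4797 ± 98.4 in dicoumarol, 4580.2 ± 217 in magnolol and 4799.7 ± 474 in combination libraries. Rosiglitazone gave 5459.8 ± 219, a log2 difference of 0.14 (95% interval 0.00 to 0.28, limma adjusted p 0.221). In mammals GCLC and GCLM are both textbook NRF2 targets, and here 1 subunit fell with magnolol and the combination while the interval of the other ran from −0.25 to 0.02 and from −0.19 to 0.09. The difference between the subunits was not tested. GSR, glutathione reductase, had 1966, 2037 and 2329 normalized counts with vehicle, 1688, 1764 and 1866 with magnolol and 1669, 1833 and 1896 with the combination. Neither group overlapped vehicle, but neither difference was called (−0.25 and −0.23, limma adjusted p 0.0742 and 0.0637). SLC7A11 imports cystine for glutathione synthesis. It had 3536, 3182 and 4696 normalized counts with vehicle and 5679.9, 5663 and 6774 with rosiglitazone, where it rose by 60.3% (log2 fold change 0.68, SE 0.15, limma adjusted p 0.00616) without overlap. With dicoumarol (0.03), magnolol (0.15) and the combination (0.10) it was not called, and each group overlapped vehicle.

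OSGIN1, an oxidative stress growth inhibitor, was the least abundant of the 9 by normalized count. Vehicle libraries had 189, 209 and 158, dicoumarol 154, 165 and 147, and magnolol 139, 127 and 145. The combination gave 111, 116 and 98.1 and rosiglitazone 255, 191 and 206. OSGIN1 fell by 41.1% with the combination (log2 fold change −0.76, SE 0.14, limma adjusted p 0.00114). The magnolol libraries lay below vehicle too, with a difference of −0.42 that was not called (limma adjusted p 0.101). NFE2L2, which encodes NRF2 itself, had 13809 ± 1130 (SD, n = 3) normalized counts with vehicle and means between 12819 and 13310 in the treated groups. The 4 log2 differences, in the order of the groups above, were −0.09, −0.05, −0.11 and −0.08, none called (limma adjusted p 0.389 to 0.777), and their 95% intervals together spanned −0.26 to 0.10. An mRNA level does not show how much NRF2 protein was present.

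Of the DFAT comparisons fitted, rosiglitazone against the combination gave the most calls among these genes. Rosiglitazone was not fitted against dicoumarol or magnolol alone. Of the 9, 6 were higher with rosiglitazone than with the combination and 0 lower, where 17.0% of all genes were called, 8.24% higher. They were OSGIN1 (0.99), SRXN1 (0.95), TXNRD1 (0.61), SLC7A11 (0.59), NQO1 (0.47) and GCLC (0.42, log2 differences). For all 6 the groups did not overlap, as for 15.1% of all genes in that direction. SLC7A11 lost its call without combination replicate 2 (limma adjusted p 0.0602) or rosiglitazone replicate 3 (0.0596). With the replicate number as a block, which pairs these libraries, GCLM was called as well (0.19, limma adjusted p 0.0193), where 24.9% of all genes were called. Without a block GCLM was at 0.0545. The block was fitted over all DFAT libraries, although for most other comparisons the numbers did not pair them. Against dicoumarol the combination gave 3 calls, NQO1, GCLC and SRXN1, all lower, where 2.35% of all genes were called, 0.344% lower. Magnolol against dicoumarol gave 1, NQO1, lower, where 1.57% were called, 0.310% lower. The combination against magnolol gave 0 by limma, where 0.621% were called, with SRXN1 and OSGIN1 at an unadjusted p under 0.05. The interaction gave 0 by limma, where 0.0810% were called, with NQO1 alone under 0.05 unadjusted.

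**Figure D2:**
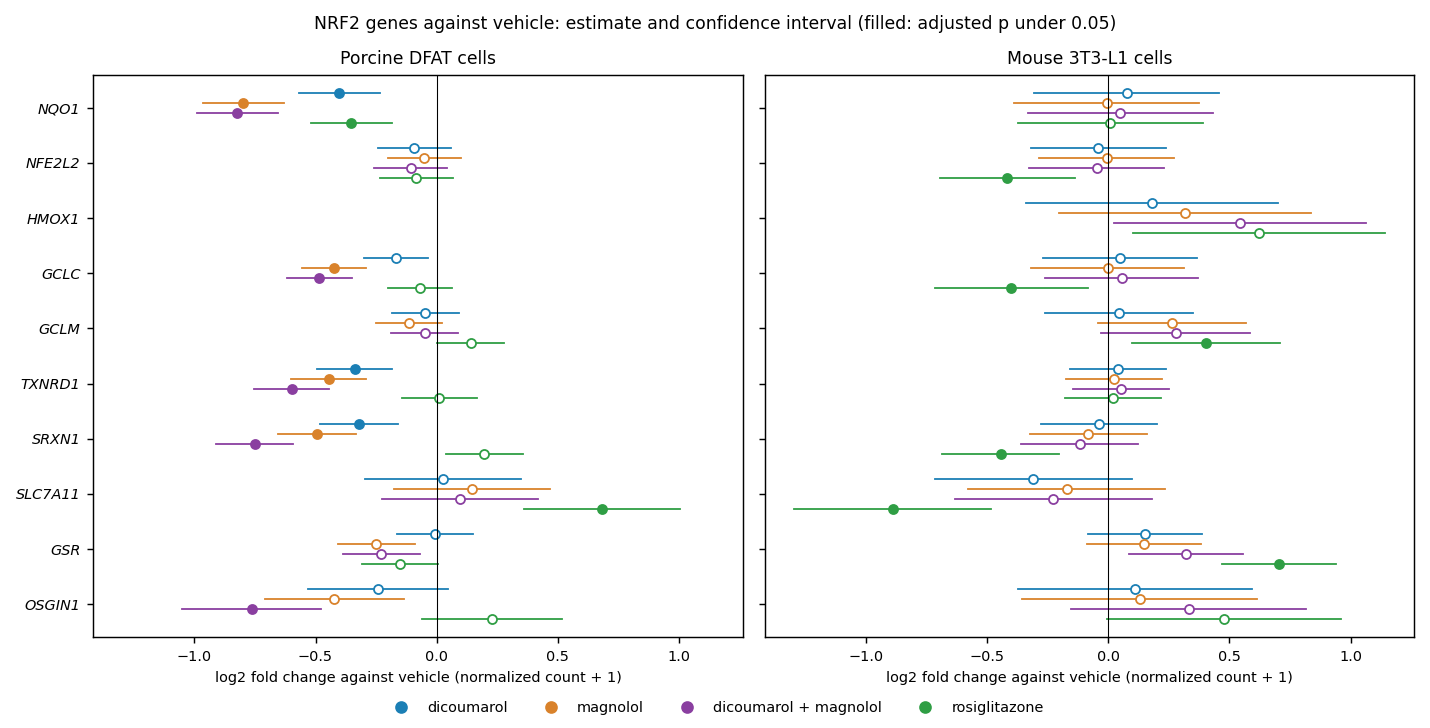
Log2 fold changes against vehicle (x axis) of the NRF2 genes (y axis) in DFAT and 3T3-L1 cells, with 95% limma intervals; filled points passed an adjusted p of 0.05. In DFAT cells the NQO1 points lie between −0.82 and −0.35, and in 3T3-L1 cells between −0.01 and 0.08.

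In 3T3-L1 cells Nqo1 (chromosome 8, 108114857 to 108129838, minus strand) did not follow the treatments. Vehicle libraries 1, 2 and 3 had 1309, 1457 and 1153 normalized counts, dicoumarol 1435, 1614 and 1114, and magnolol 1367, 1575 and 1008. The combination gave 1323, 1621 and 1138, and rosiglitazone 1282, 1558 and 1120.1. All groups overlapped. In each of the 5 groups the library numbered 2 was the highest and the library numbered 3 the lowest. The log2 fold changes, in the order dicoumarol, magnolol, combination, rosiglitazone, were 0.08, −0.01, 0.05 and 0.01 (SE 0.18, limma adjusted p 0.943 to 1). The numbers pair the 3T3-L1 libraries across groups. With that block the SE was 0.07 and the 95% intervals were −0.07 to 0.23, −0.16 to 0.14, −0.10 to 0.20 and −0.14 to 0.16. A fall of the size seen with magnolol in DFAT cells lies outside these intervals, but a difference between the 2 systems was not tested.

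**Figure D3:**
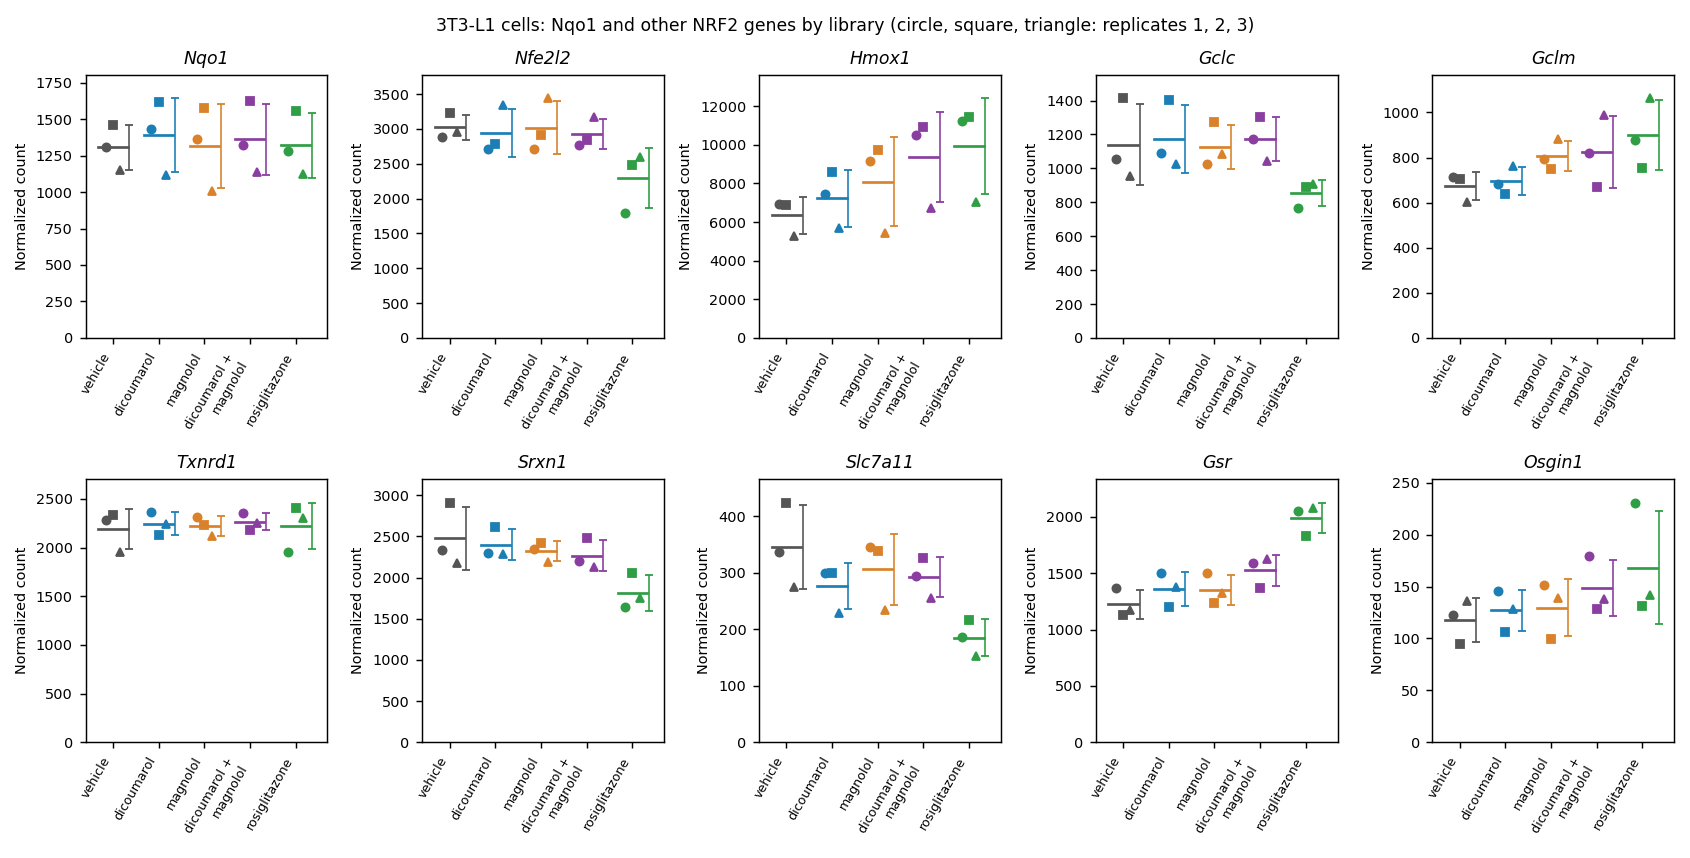
Normalized counts of the 10 genes in 3T3-L1 cells (y axis from 0, one panel per gene) in the 5 groups (x axis), with circles, squares and triangles for replicates 1, 2 and 3, lines for means and bars for ± 1 SD (n = 3). Nqo1 lies between 1008 and 1621 in every group, and Gsr reaches 1832 to 2078 with rosiglitazone.

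For dicoumarol, magnolol and the combination, limma called 0 of the 10 mouse genes. The share of all tested genes called was 0% (dicoumarol), 1.23% (magnolol) and 5.22% (combination). At an unadjusted p under 0.05 the members were 0, 0 and 2 (Hmox1 and Gsr). Rosiglitazone was different in scale: 40.1% of all genes were called, and among the 10 there were 6, of which 4 were lower (19.9% of all genes) and 2 higher (20.3%). The median over the 10 was 0.05, 0.01, 0.05 and 0.01 in the 4 comparisons, in the order above. Of the other comparisons, the combination against dicoumarol (0.0254% of all genes), the combination against magnolol (0%), magnolol against dicoumarol (0%) and the interaction (0%) gave 0 by limma, with 0 members at an unadjusted p under 0.05.

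Hmox1, heme oxygenase 1, breaks down heme, and per kilobase of exon it was the most abundant of the 10. Its libraries 1, 2 and 3 had 6909.7, 6867 and 5254 normalized counts with vehicle and 7432, 8604 and 5677 with dicoumarol. Magnolol gave 9148, 9710.0 and 5439, the combination 10509, 10933 and 6710, and rosiglitazone 11257, 11437 and 7049. Library 3 was the lowest in each of the 5 groups, so that the groups other than rosiglitazone overlapped vehicle. Within each number every treated library lay above its vehicle library, by 0.105 to 0.33 on the log2 scale (dicoumarol), 0.05 to 0.50 (magnolol), 0.35 to 0.67 (combination) and 0.42 to 0.74 (rosiglitazone). The fit without a block called none of these (0.18, 0.32, 0.54 and 0.62, limma adjusted p 1, 0.767, 0.263 and 0.0542). With the replicate block limma called magnolol (adjusted p 0.0340), both compounds together (3e-04) and rosiglitazone (1.31e-05), and dicoumarol was not called (0.755). The block called 4.96% (magnolol), 13.5% (combination) and 49.8% (rosiglitazone) of all genes, and among the 10 members 1, 2 and 8. Hmox1 with the combination also lay above dicoumarol with the block (0.36, limma adjusted p 0.0221; 3.62% of all genes). Without a block and without rosiglitazone replicate 3 the rosiglitazone difference was 0.85 (limma adjusted p 0.0158).

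**Figure D4:**
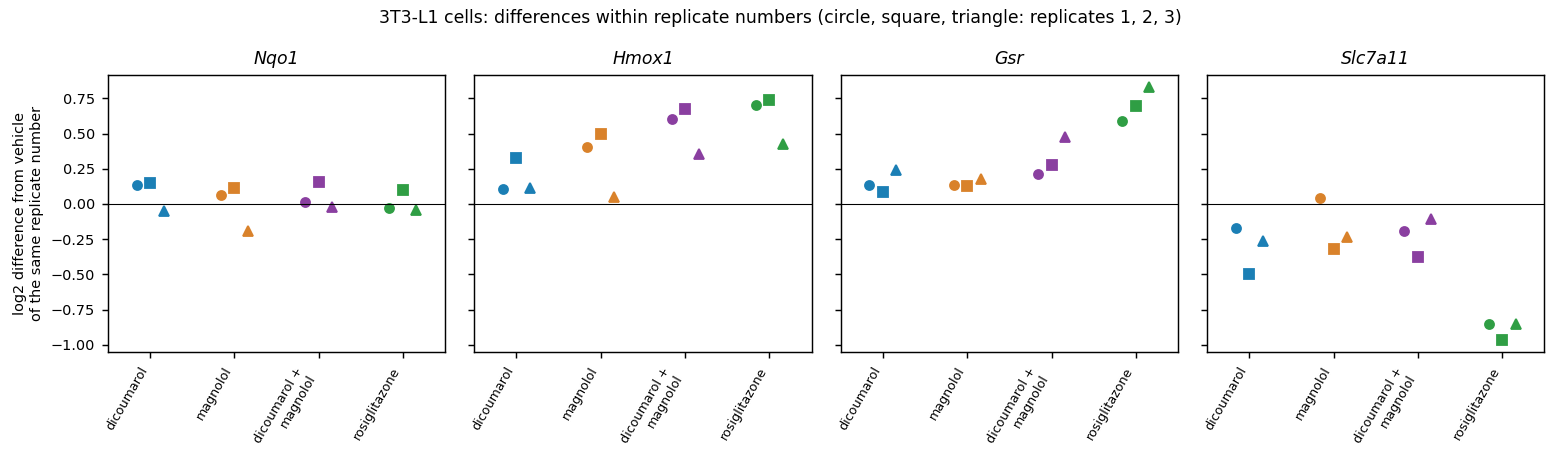
Log2 difference of each treated 3T3-L1 library from the vehicle library of the same replicate number (y axis) for Nqo1, Hmox1, Gsr and Slc7a11 by treatment (x axis), with a pseudocount of 1. All 12 Hmox1 and all 12 Gsr points lie above 0, and the Nqo1 points lie on both sides.

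Gsr rose by 63.0% with rosiglitazone, from 1366, 1131 and 1169 normalized counts to 2055, 1832 and 2078 (log2 fold change 0.70, SE 0.11, limma adjusted p 0.000126). With the combination it stood at 1586, 1368 and 1625, above every vehicle library, with a difference of 0.32 that was called with the block alone (limma adjusted p 0.00461, against 0.118 without it). Gclm had 714, 705 and 604 normalized counts with vehicle and 879.6, 756 and 1062 with rosiglitazone, a rise of 0.40 (limma adjusted p 0.0346). In fits with no block the Gclm call was lost without vehicle replicate 2 (0.0534) or 3 (0.121) or rosiglitazone replicate 1 (0.0690) or 3 (0.161). Osgin1 had 123, 95.0 and 136 with vehicle and 231, 132 and 142 with rosiglitazone. The groups overlapped, and the difference of 0.48 was called with the block alone (limma adjusted p 0.0110, against 0.108).

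Among the 4 mouse genes that fell with rosiglitazone, Slc7a11 moved most. It had 336, 424 and 275 normalized counts with vehicle and 186, 217 and 152 with rosiglitazone, a fall of 46.0% (log2 fold change −0.89, SE 0.19, limma adjusted p 0.00167) without overlap. In DFAT cells the same gene rose with rosiglitazone (above); the difference was not tested. Srxn1 went from 2336, 2908 and 2183 to 1639, 2055 and 1746 (−0.44, limma adjusted p 0.00538), again without overlap. Nfe2l2 went from 2883, 3227 and 2957 to 1797, 2475 and 2597 (−0.42, limma adjusted p 0.0189). Its call was lost without vehicle replicate 2 (0.0704) and without rosiglitazone replicate 1, where the difference shrank to −0.25 (0.111). Array weights also reduced it, to −0.22 (0.0599). Gclc went from 1056, 1412 and 953 to 767, 887 and 908 (−0.40, limma adjusted p 0.0428). This was the weakest of the 6 calls made without a block. It was lost without any 1 of 5 libraries: vehicle replicates 1 (0.0536) and 2 (−0.24, 0.228) and rosiglitazone replicates 1 (0.152), 2 (0.0549) and 3 (0.0533). Array weights gave −0.26 (0.0558). These fits, like the others that left out a library, did not use the block that pairs the 3T3-L1 libraries. Txnrd1 was near level, with group means from 2190.1 to 2265 and a rosiglitazone difference of 0.02 (95% interval −0.18 to 0.22).

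Against the combination, rosiglitazone gave 3 calls in 3T3-L1 cells, where 18.3% of all genes were called, 9.53% higher and 8.78% lower. Gsr was higher (0.38, limma adjusted p 0.0262), and Slc7a11 (−0.66, 0.0264) and Gclc (−0.45, 0.0449) were lower. For these 3 genes the groups did not overlap. With the block Nfe2l2 (−0.37, limma adjusted p 0.00544) and Srxn1 (−0.33, 0.00218) were called too, where 33.3% of all genes were. These calls were fragile without it. Gclc was lost without combination replicate 1 (0.101), 2 (0.143) or 3 (0.0526) or rosiglitazone replicate 1 (0.180) or 3 (0.0625). Gsr was lost without combination replicate 2 (0.104) or rosiglitazone replicate 1 (0.0954) or 3 (0.0765), and Slc7a11 without combination replicate 1 (0.0680) or 2 (0.0901) or rosiglitazone replicate 1 (0.0760) or 3 (0.0952).

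Levels of different mouse genes can be compared per kilobase of exon. With vehicle the order of mean normalized counts per kilobase was Hmox1 (3623 ± 539, SD, n = 3), Srxn1 (878 ± 136), Nqo1 (841 ± 97.8), Nfe2l2 (796 ± 47.7), Gsr (444 ± 45.9), Txnrd1 (309 ± 29.4), Gclc (303 ± 64.0), Gclm (107 ± 9.65), Osgin1 (44.1 ± 7.83) and Slc7a11 (24.8 ± 5.36). The ranges of Srxn1, Nqo1 and Nfe2l2 overlapped, as did those of Txnrd1 and Gclc. The other neighbours did not overlap. In 3T3-L1 cells the cystine importer was thus far below the ligase subunits on this scale. No exon lengths were held for the pig genes.

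In 3T3-L1 cells 11 regulators of NRF2 were tested (Keap1, Cul3, Rbx1, Sqstm1, Mafg, Mafk, Maff, Bach1, Nfe2l1, Btrc and Gsk3b). Limma called 0 of them for dicoumarol, magnolol or the combination, where 0%, 1.23% and 5.22% of all genes were called. Maff differed by −0.51 with magnolol, overlapping vehicle (limma adjusted p 0.439), and by −0.57 with the combination, without overlap (0.18). With the block Maff was called for the combination (limma adjusted p 0.0264) but not for magnolol (0.0904), where 13.5% and 4.96% of all genes were called. With rosiglitazone 5 fell and 0 rose, beside 19.9% and 20.3% of all genes. With the block Rbx1, a subunit of the ubiquitin ligase, was also called higher (0.21, limma adjusted p 0.0373, against 0.0703 without the block). Bach1, the repressor that competes for NRF2 sites, fell by 0.96 on the log2 scale (limma adjusted p 0.000329), Maff by 0.74 (0.0157), Mafk by 0.36 (0.0199), Sqstm1 by 0.32 (0.00483) and Cul3 by 0.26 (0.0407). In fits with no block the Maff call was lost without vehicle replicate 2 (0.0687). That of Mafk was lost without vehicle replicate 1 (0.0572) or 2 (0.0867) or rosiglitazone replicate 1 (0.0766) or 3 (0.0548). That of Cul3 was lost without vehicle replicate 2 (0.210) or rosiglitazone replicate 1 (0.148) or 2 (0.0540). With the block and all libraries, Maff (limma adjusted p 0.00134), Mafk (0.00816) and Cul3 (0.00895) were called, where 49.8% of all genes were. Keap1, the NRF2 adaptor for degradation, was not called in either system. Its 3T3-L1 differences ran from −0.02 to 0.19 and its DFAT differences from −0.16 to −0.01.

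In DFAT cells 0 of the 11 regulators were called with dicoumarol, 1 was lower with magnolol, 4 were lower with the combination and 1 was higher with rosiglitazone. Of all genes 1.27% were lower under magnolol, 4.06% lower under both compounds and 5.80% higher under rosiglitazone. SQSTM1, an autophagy adaptor that binds KEAP1, fell by 0.30 with magnolol (limma adjusted p 0.0209) and by 0.41 with the combination (0.000752). The magnolol call of SQSTM1 was lost without vehicle replicate 1 (0.101) or magnolol replicate 1 (0.0595) or 3 (0.107). BACH1 (−0.41, limma adjusted p 0.0012), MAFF (−0.54, 0.00175) and RBX1 (−0.26, 0.0171) were lower with the combination. RBX1 lost its call without vehicle replicate 3 (0.0835) or combination replicate 1 (0.0537) or 3 (0.0764). MAFF, a small MAF partner, rose with rosiglitazone (0.59, limma adjusted p 0.000782).

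A wider list of 43 NRF2 targets was sorted by role into glutathione and peroxide enzymes, NADPH supply, detoxification, and heme, iron and export. In DFAT cells 34 of them were tested. Dicoumarol lowered 2 and raised 0, magnolol lowered 7 and raised 1, the combination lowered 7 and raised 2, and rosiglitazone lowered 2 and raised 2. Of all genes tested, 1.94%, 4.22%, 10.2% and 10.8% were called in these comparisons, in either direction. The shares called lower were 1.03%, 1.27%, 4.06% and 5.02%, and 5.80% were higher with rosiglitazone. The medians were 0.02, −0.10, −0.04 and 0.00. FTL, the ferritin light chain that stores iron, fell by 0.67 with magnolol (limma adjusted p 0.000864) and by 0.64 with the combination (0.000554). CAT, catalase, was lower with dicoumarol (−0.42, limma adjusted p 0.00217), magnolol (−0.41, 0.00125) and the combination (−0.26, 0.0175), the last call being lost without vehicle replicate 1 (0.0795) or combination replicate 3 (0.0623). PRDX6, a peroxiredoxin, fell with dicoumarol by 0.48 (limma adjusted p 0.0112), with magnolol by 0.38 (0.0287) and with both compounds by 0.57 (0.000604). Without vehicle replicate 1 the PRDX6 calls with dicoumarol (0.0851) and magnolol (0.161) were lost. The first was also lost without dicoumarol replicate 2 (0.0622) or 3 (0.0917), and the second without vehicle replicate 3 (0.0663) or magnolol replicate 2 (0.0692) or 3 (0.135). BLVRB, a biliverdin reductase, fell by 0.38 with magnolol (0.0397), a call lost without vehicle replicate 1 (0.148) or 2 (0.116) or magnolol replicate 1 (0.117), 2 (0.0505) or 3 (0.156).

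The largest rise in the pig list was that of MGST1, a microsomal glutathione transferase, which rose with magnolol by 0.56, with both compounds by 1.21 and under rosiglitazone by 1.62 (limma adjusted p 0.00261, 3.65e-07 and 5.22e-09). IDH1, which makes cytosolic NADPH, rose by 0.25 with both compounds (limma adjusted p 0.00457) and by 0.73 under rosiglitazone (2.7e-08). These rises ran opposite to NQO1. The summed level of 8 adipocyte markers was 18489 to 21420 normalized counts in vehicle libraries, 23442 to 25088 in dicoumarol, 36161 to 44592 in magnolol, 56913 to 64213 in combination and 76446 to 83524 in rosiglitazone libraries. Fibroblast markers, collagens among them, took 4.10% to 4.53% of vehicle, 5.43% to 5.57% of dicoumarol, 6.01% to 6.53% of magnolol, 5.90% to 6.29% of combination and 3.29% to 3.57% of rosiglitazone counts. The summed level of 5 muscle and mural cell markers was 3871 to 4294 in vehicle, 8545 to 8747 in dicoumarol, 9668 to 11766 in magnolol, 12834 to 14167 in combination and 8565 to 8971 in rosiglitazone libraries. Of the 5 endothelial markers with a row, PECAM1 reached 236 and no other passed 5.10. Mitochondrial genes took 9.58% to 10.2% of vehicle, 10.65% to 11.7% of dicoumarol and 10.5% to 12.9% of magnolol counts. Their share was 12.2% to 15.1% in combination and 6.85% to 10.8% in rosiglitazone libraries. The part of these shifts in the NRF2 gene results was not tested. After quantile normalization the NQO1 differences were −0.40, −0.79, −0.81 and −0.37.

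**Figure D5:**
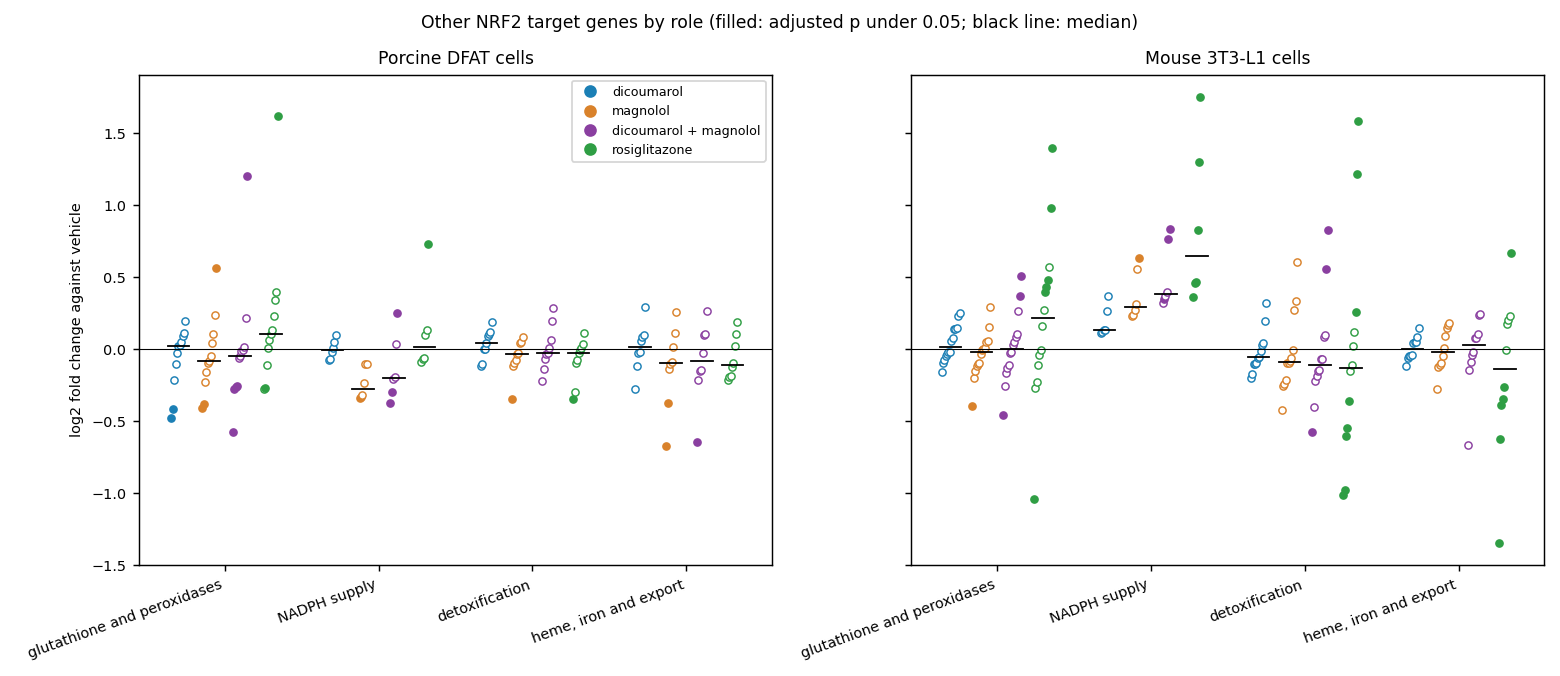
Log2 fold changes against vehicle (y axis) of the other NRF2 targets by role (x axis) in DFAT and 3T3-L1 cells; each point is a gene, filled at an adjusted p under 0.05, with the median of each role and treatment as a black line. The 6 NADPH genes of 3T3-L1 cells are filled and above 0 with rosiglitazone, with a median of 0.65.

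In 3T3-L1 cells 42 of the 43 were tested. Without a block limma called 0 for dicoumarol. Magnolol raised 1 and lowered 1, the combination raised 7 and lowered 2, and rosiglitazone raised 15 and lowered 11. Of all genes tested, 1.23%, 5.22% and 40.1% were called in these comparisons, and for rosiglitazone 20.3% were higher and 19.9% lower. With the block magnolol gave 6 rises with 2 falls beside 4.96% of all genes called, and the combination 10 rises with 5 falls beside 13.5%. For dicoumarol the block called Taldo1 higher (0.37, limma adjusted p 0.0197), where 79 of 15723 genes were called. Of the NADPH genes all 6 rose with rosiglitazone and 3 with the combination, or 6 of 6 with the block in both. Taldo1, transaldolase, rose by 0.84 with both compounds (limma adjusted p 0.00275) and 1.75 under rosiglitazone (4.26e-07), and Me1, malic enzyme, by 0.77 and 1.30 (0.00448 and 5.13e-06). Both also serve lipid synthesis. Mgst1 (1.40), Cbr3 (1.58) and Cbr1 (1.21) rose with rosiglitazone, the last 2 being carbonyl reductases. Trim16 (−1.35), Prdx6 (−1.04), Ephx1 (−1.02), Aldh3a1 (−0.98) and Abcc4 (−0.62) fell with rosiglitazone, each with a limma adjusted p of 0.00365 or less. Summed adipocyte markers stood at 44205 to 62112 normalized counts in vehicle, 62262 to 96533 in dicoumarol, 89035 to 132970 in magnolol, 114980 to 180990 in combination and 321410 to 565840 in rosiglitazone libraries, and mitochondrial genes took 7.67% to 14.3% of counts there against 5.22% to 7.00% with vehicle. Their part in the result was not tested.

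NQO1 and SLC7A11 are also reached by other pathways, the first by the aryl hydrocarbon receptor AHR and the second by the stress factor ATF4. Any part of AHR in the NQO1 result was not tested. In DFAT cells AHRR, the AHR repressor and a classic AHR target, rose by 0.49 with dicoumarol and 0.42 with the combination (limma adjusted p 0.000791 and 0.00071). TIPARP, another AHR target, fell by 0.23 under magnolol (0.0335) and by 0.26 under both compounds (0.00705), and rose by 0.37 with rosiglitazone (0.000325). Its difference with dicoumarol, −0.22, was not called (limma adjusted p 0.0713), though the groups did not overlap. The fall under magnolol missed the threshold on leaving out vehicle replicate 1 (0.143) or 3 (0.128) or magnolol replicate 1 (0.147), 2 (0.0710) or 3 (0.0728). With rosiglitazone, where SLC7A11 rose, 9 of 15 ATF4 list genes rose and 0 fell (median 0.45), SLC7A11 included, beside 5.80% of all genes higher. PSAT1, a serine synthesis enzyme, rose by 0.73 (limma adjusted p 3.38e-07), CHAC1, which degrades glutathione, by 0.67 (0.000672), TRIB3 by 0.58 (8.92e-05) and DDIT3 by 0.56 (2.75e-05). ATF4 itself fell by 0.27 under both compounds (0.00885) and rose by 0.22 under rosiglitazone (0.0304). The latter call was lost without vehicle replicate 1 (0.0603) or 2 (0.128) or rosiglitazone replicate 2 (0.0875) or 3 (0.0754). In 3T3-L1 cells, where Slc7a11 fell with rosiglitazone, 2 of 15 rose and 2 fell, again with Slc7a11 counted, beside 20.3% and 19.9% of all genes. Psat1 rose by 0.85 (limma adjusted p 0.00167), and Vldlr fell by 0.88 (0.000106). Ahr fell by 1.63 (0.00139).

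The genes whose pattern was most like that of NQO1 were ranked by Pearson correlation of log2 levels over the 15 libraries of a system. The points share library and depth, and in DFAT also the group steps, so these are descriptions. In DFAT cells, among 9932 genes with a symbol and a mean of at least 100, they were ATP6V1H (0.94), SH3BP5 (0.94), FTL (0.93), FBXL7 (0.92) and CLTA (0.92). The most opposite were COL5A1 (−0.97), MYH9 (−0.96) and AXL (−0.96). FTL is itself an NRF2 target and COL5A1 a fibrillar collagen chain. Of the other 8 pig members GCLC (0.85), SRXN1 (0.80) and TXNRD1 (0.79) came closest to NQO1, and NFE2L2 (0.25) and SLC7A11 (−0.05) were least alike. In 3T3-L1 cells, among 11577 genes, the most alike were Igfbp3 (0.92), Foxc2 (0.92), Aars (0.91), Ptpn3 (0.91) and Cirbp (0.91), and among the most opposite were Adgrg2 (−0.94) and Plod2 (−0.93). There the Nqo1 pattern was the order of replicate numbers described above. Hmox1 (0.72) was the most alike of the other members.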

How the data were processed

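The 30 libraries are 15 of 3T3-L1 and 15 of DFAT cells, in 5 groups of 3 each. The authors deposited signal values, gene counts normalized by DESeq2 per the labels' file descriptions, with mouse and pig in separate tables. The submitters' processing notes also name bcl2fastq 2.19.1.403, STAR and GRCm38 without roles. Of 24070 mouse genes matched to the GENCODE annotation of GRCm38, 95.5% shared their length but 2.18% their start, so gene coordinates are given as deposited, their build is not settled, and no sequence was read by them. The pig build is not given in the sources used here. No column of values was left unmapped. Whole reads were not recovered (81.1% to 83.6% of low values whole in 3T3-L1, 89.7% to 91.0% in DFAT, within 0.02), so no count test was run.

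Genes with a mean of at least 10 were fitted with limma 3.58.1 (R 4.3.3) on log2(value + 1): 5 group means in 1 model, trended moderated variances, two-sided tests, Benjamini-Hochberg adjustment, 95% intervals. SD is over the 3 libraries of a group. SE is the moderated value of limma, drawn from the spread within groups over all 15 libraries of a system. Plots used matplotlib 3.10.9 in Python 3.11.15. The code of the fit was also run on simulated counts. These had the same dispersion for every gene and no replicate effect, unlike the 3T3-L1 libraries. Named genes are all members, all NRF2 regulators, from the other NRF2 targets the 5 largest called rises and falls per system against vehicle, AHR and ATF4 list genes called where NQO1 or SLC7A11 was, at most 4 per comparison, and the 5 most and 3 least correlated with NQO1; marker genes are named beside results. A few genes that this rule names are not reported here. Members and lists were chosen with earlier results of these data known. Alternatives are given in the closing section.

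The labels number replicates 1 to 3 in every group. In 3T3-L1 all 30 same-numbered pairs of libraries from different groups shared deviations from their group means, with correlations over 0.1 (lowest 0.106, median 0.300), so the numbers pair these libraries. In DFAT 16 of 30 did, and every pair did only for the combination against magnolol (lowest 0.118) and rosiglitazone against the combination (lowest 0.105).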

Additional observations from a re-analysis of the deposited data

Results flagged for a closer look

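Several genes moved in opposite directions in the mouse and pig cells, with every treated library on opposite sides of the vehicle mean. These differences were not tested, since the tables were normalized separately. Slc7a11 changed by −0.89 in 3T3-L1 and SLC7A11 by 0.68 in DFAT cells with rosiglitazone, both called by limma. Osgin1 changed by 0.33 and OSGIN1 by −0.76 with the combination, of which the pig value was called. Srxn1 changed by −0.44 and SRXN1 by 0.20 with rosiglitazone, of which the mouse value was called. Gsr changed by 0.15, 0.32 and 0.70 with magnolol, the combination and rosiglitazone, and GSR by −0.25, −0.23 and −0.15. Of these 6 the mouse rosiglitazone value was called without a block. With magnolol Gclm changed by 0.26 and GCLM by −0.11, neither called.

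For CAT in DFAT cells the combined log2 change was less negative than the sum of the single changes, by 0.56, an interaction that passed the adjustment over all genes.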

How the results depend on the processing

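For every count of members called, quantile normalization, a pseudocount of 0.5 or 5, no filter, a minimum mean of 50, no variance trend, only the groups compared, array weights and a replicate block were tried. No called value changed sign. In DFAT the dicoumarol count of 3 became 1 when no filter was used and 1 when variances had no trend. Over all genes the main fit called 288, against 201 with no filter and 208 with no trend. The combination against dicoumarol (3) became 5 after quantile normalization and 6 with array weights. Of all genes 353 and 1595 were then called, against 348 in the main fit. Magnolol against dicoumarol (1) became 2 at a minimum mean of 50, 3 with only the groups compared and 3 with array weights. Over all genes these settings called 236, 450 and 773, against 233 in the main fit. The combination against magnolol (0) became 1 with array weights, where 349 genes were called in all, against 92. In 3T3-L1, rosiglitazone against the combination (3) became 5 after quantile normalization, where 3001 genes were called in all, against 2879. Leaving out 1 library at a time was done without a block. In DFAT it gave 0 to 3 calls for dicoumarol, 0 to 1 for magnolol against dicoumarol, 2 to 3 for the combination against dicoumarol and 5 to 7 for rosiglitazone against the combination. In 3T3-L1 it gave 0 to 5 for rosiglitazone against the combination and 3 to 5 for rosiglitazone against vehicle. The other counts stayed at 4 (DFAT magnolol), 5 (combination), 2 (rosiglitazone) and 0.

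With the replicate block, which pairs the 3T3-L1 libraries, the counts were 1 for magnolol, 2 for the combination, 1 for the combination against dicoumarol and 5 for rosiglitazone against the combination. Over all genes the block called 780, 2124, 569 and 5234 in these comparisons, against 193, 821, 4 and 2879 without it. In DFAT, where the numbers pair libraries in 2 comparisons only, the block gave 6 for the combination against dicoumarol and 3 for magnolol against dicoumarol. Over all genes it called 893 and 656 there, against 348 and 233 without it. The other counts of members stayed within 1.5 times. Uncalled differences changed sign in 216 fits of single genes in 3T3-L1 and 100 in DFAT. With 3 libraries a group, small changes may be missed.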
